A study of Mus musculus with 10 samples.

Results

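Genes of fatty acid uptake and lipid droplets were followed through neutrophils and CCR2+ monocytes of the mouse lung: Slc27a2, Slc27a4, Acsl1, Acsl4, Dgat1, Dgat2, Plin2, G0s2, Pnpla2 and Cpt1a. These are 10 of the 29893 genes with annotated transcripts, were matched by gene symbol, and all 10 passed the filter on low counts that left 13384 genes. Slc27a2 passed it through neutrophil libraries alone. The list was chosen by role in lipid handling, with the measured levels in neutrophils and monocytes of these same libraries already known, so differences between the cell types are given for these genes as a description, without a test.

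The cells came from lungs of NOD/scid mice, a strain without functional T and B lymphocytes, and were sorted by flow cytometry when the tumour had reached end point. All mice carried a tumour: HCl-002, labelled TN2 and low metastatic, or HCl-001, labelled TN1 and highly metastatic. Neutrophils and CCR2+ monocytes each gave 3 TN2 libraries (tag_367, tag_706 and tag_1341) and 2 TN1 libraries (tag_191 and tag_482), 10 libraries in all. The age of the mice is not given, lungs without a tumour were not analysed here, and nothing states that the tags are separate animals, so p-values measure the spread between these libraries, which may be technical.

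Cells take up long-chain fatty acids with the help of transport proteins of the Slc27a family, and acyl-CoA synthetases trap them as acyl-CoA. The acyl-CoA is either passed into mitochondria by the carnitine shuttle and oxidised, or built into triglyceride that is stored in lipid droplets. Droplets are coated by perilipins and emptied by lipases. Neutrophils lean on glycolysis for energy, while lipid-laden neutrophils and Slc27a2 have been described in tumour-bearing mice of other models.

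Libraries held 7239218 to 11311370 estimated counts. All 12 neutrophil markers were higher in neutrophils and 10 of 12 monocyte markers were lower there (edgeR, adjusted p under 0.05). The summed level of the neutrophil markers was 146287 to 217180 TPM (a level corrected for transcript length, summing to the same total in every library) in neutrophils and 528 to 9262 TPM in monocytes, where tag_706 was highest. Monocyte markers summed to 360.1 to 890.5 TPM in neutrophils and 8113 to 22456 TPM in monocytes. Dendritic cell markers summed to 3429 to 20936 TPM in monocytes, but most of that was 1 gene. H2-Ab1 alone ran from 3298 to 20041 TPM in monocytes and from 30.8 to 167.6 TPM in neutrophils. In monocytes Cd209a averaged 165.6 TPM, Ccr7 138.9, Clec9a 17.0, Flt3 13.8 and Xcr1 2.26 TPM. Of 8 adipocyte markers, which summed to at most 46.3 TPM in neutrophils and 41.2 TPM in monocytes, Plin1, Cfd, Lep and Car3 were at 0 in every neutrophil library. Markers of alveolar macrophages, cells rich in lipid, summed to 177 to 1171 TPM in neutrophils, with Fabp1 and Cidec at 0 in every library, and to 121 to 11243 TPM in monocytes. Most of the larger sums was Chil3, at 105 to 1095 TPM in neutrophils and 64.6 to 11047 TPM in monocytes. Marco and Mrc1 averaged 0.0972 and 0.177 TPM in neutrophils and 3.41 and 14.4 TPM in monocytes. The part of these markers in the levels below was not tested. Mitochondrially encoded genes took 3.002% of TPM in neutrophil TN1 tag_482 and 19.9% in monocyte TN1 tag_482, against 0.283% to 0.813% and 4.82% to 5.82% in the other libraries of each cell type.

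Slc27a4, Acsl1, Dgat1, Dgat2, G0s2 and Pnpla2 were at higher levels in neutrophils than in monocytes, the droplet coat gene Plin2 and Acsl4 were at higher TPM in monocytes, and Cpt1a overlapped. In CPM (counts over the library size after TMM scaling, with no correction for length), 6 of the 10 genes were higher in every neutrophil library than in every monocyte library, 0 were lower and 4 overlapped. Among all 13384 genes, 12.5% stood higher and 16% stood lower with no overlap (28.5% in all), and 27.9% passed the edgeR test in either direction, or 40.9% before adjustment. These shares are background for a list chosen with this contrast known. In TPM, 5 were higher, 2 (Acsl4 and Plin2) lower and 3 overlapping. The median log2 difference of all genes, neutrophils minus monocytes, was -0.46 in CPM and -0.62 on the log2(TPM + 1) scale, so a gene's standing also depends on the scale. In RNA of whole cell populations, fewer cells that carry a transcript and less of it per cell cannot be told apart.

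**Figure D1:**
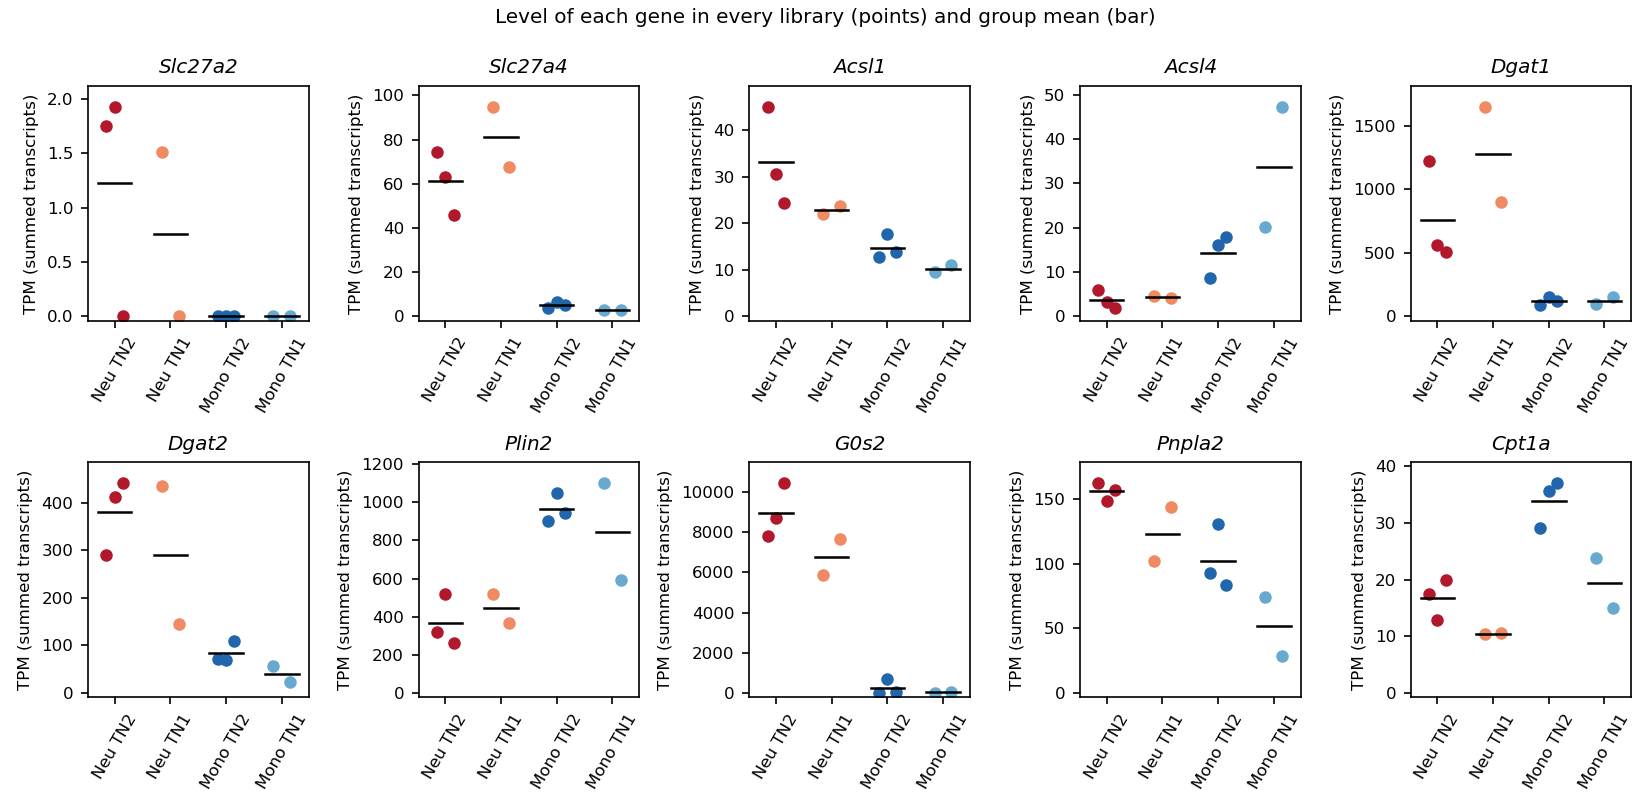
Level of each of the 10 genes in TPM (linear vertical axes from 0, a different range in each panel) in neutrophils (red) and CCR2+ monocytes (blue), TN2 left of TN1; points are libraries and bars are group means. G0s2, Slc27a4, Dgat1, Dgat2 and Acsl1 sit higher in every neutrophil library than in every monocyte library, while Plin2 and Acsl4 sit lower.

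By their median over 5 libraries, the order of the levels in neutrophils was G0s2 at 7796 TPM, Dgat1 at 902, Dgat2 at 412, Plin2 at 366.9, Pnpla2 at 148, Slc27a4 at 67.8, Acsl1 at 24.3, Cpt1a at 12.9, Acsl4 at 4.05 and Slc27a2 at 1.51 TPM. Only Dgat2 and Plin2, and Acsl4 and Slc27a2, overlapped between libraries among neighbours in that order. In monocytes the order was Plin2 at 943 TPM, Dgat1 at 126, Pnpla2 at 83.6, Dgat2 at 69.8, G0s2 at 49.0, Cpt1a at 29.2, Acsl4 at 17.8, Acsl1 at 12.7, Slc27a4 at 3.86 and Slc27a2 at 0 TPM. There Plin2 stood clear of Dgat1, and Slc27a4 of both its neighbours, while the neighbours from Dgat1 down to Acsl1 overlapped. G0s2 was first in neutrophils and the fifth in monocytes. Both orders sum all transcripts of a gene, coding or not. The coding transcript of Dgat1 alone averaged 126 TPM in neutrophils and 36.2 TPM in monocytes. Of Pnpla2 TPM, 58.8% in neutrophils and 62.1% in monocytes lay on transcripts annotated for nonsense-mediated decay.

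Promoter sequences are shown for Slc27a4 and G0s2, which had the highest log2 differences among the genes with reads in both cell types, for Plin2, which was not higher in neutrophils, and for both RefSeq starts of Acsl1, which the transcripts tell apart. Each is the 250 bases before the RefSeq start of the gene in build GRCm38.p6, 5′ to 3′ on the gene's strand. Capitals mark a GC box (GGGCGG) or the core hexamer of the PPAR response element (AGGTCA) on either strand.
Slc27a4, chr2:29802384-29802633, plus strand: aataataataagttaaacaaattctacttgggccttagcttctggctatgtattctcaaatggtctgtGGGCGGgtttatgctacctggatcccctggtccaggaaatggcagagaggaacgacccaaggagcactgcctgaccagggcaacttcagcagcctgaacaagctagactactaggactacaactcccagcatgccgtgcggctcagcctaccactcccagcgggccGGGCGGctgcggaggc
G0s2, chr1:193273189-193273438, minus strand: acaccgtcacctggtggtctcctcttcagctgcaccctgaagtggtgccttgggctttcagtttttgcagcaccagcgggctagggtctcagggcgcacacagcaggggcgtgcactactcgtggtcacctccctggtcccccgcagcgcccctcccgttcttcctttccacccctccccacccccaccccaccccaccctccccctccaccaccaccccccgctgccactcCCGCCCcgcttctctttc
Plin2, chr4:86670060-86670309, minus strand: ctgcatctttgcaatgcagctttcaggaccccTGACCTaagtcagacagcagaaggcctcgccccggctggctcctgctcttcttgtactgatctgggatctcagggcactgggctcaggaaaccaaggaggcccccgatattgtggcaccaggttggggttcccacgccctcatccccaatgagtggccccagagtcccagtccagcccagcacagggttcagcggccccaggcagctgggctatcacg
Acsl1 upstream start, chr8:46470787-46471036, plus strand: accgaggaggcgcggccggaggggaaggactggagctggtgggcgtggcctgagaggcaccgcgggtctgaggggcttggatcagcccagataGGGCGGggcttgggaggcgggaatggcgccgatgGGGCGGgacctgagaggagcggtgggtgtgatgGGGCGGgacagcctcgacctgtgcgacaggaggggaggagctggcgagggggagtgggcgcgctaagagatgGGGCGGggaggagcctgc
Acsl1 downstream start, chr8:46490716-46490965, plus strand: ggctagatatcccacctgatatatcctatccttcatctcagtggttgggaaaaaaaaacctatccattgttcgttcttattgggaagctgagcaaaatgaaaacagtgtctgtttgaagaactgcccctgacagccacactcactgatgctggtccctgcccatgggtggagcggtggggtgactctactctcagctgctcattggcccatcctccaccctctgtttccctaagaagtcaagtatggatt

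RefSeq promoters were matched for 8 of the 10 genes, all but Dgat1 and Dgat2. The GC box stood in the windows of Slc27a2, Slc27a4, Acsl4, G0s2, Pnpla2, Cpt1a and, 4 times, of the upstream start of Acsl1, against 32.7% of 32851 promoter windows of this length. It was in neither the Plin2 window nor that of the downstream start of Acsl1. The PPAR hexamer stood in the windows of Slc27a2, Plin2 and Cpt1a, against 14.0% of all windows. None of the windows of these genes held the PPAR direct repeat (AGGTCANAGGTCA, 0.0335% of all windows), the E-box (CACGTG, 6.02%) or the TATA box (TATAAA, 12.4%). The match is one of letters only, on both strands, and hits of a motif may overlap.

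Slc27a4 encodes a fatty acid transport protein with acyl-CoA synthetase activity (chr2:29802634-29817522, plus strand). It was at 74.6, 63.0 and 46.1 TPM in TN2 neutrophils (tag_367, tag_706 and tag_1341, an order kept for TN2 throughout) and 94.8 and 67.8 TPM in TN1 neutrophils (tag_191 and tag_482, likewise). In monocytes it was at 3.86, 6.66 and 4.99 TPM in TN2 and 2.95 and 2.74 TPM in TN1. Every neutrophil library was far above every monocyte library, and the log2 difference in CPM was 4.83 (SE 0.25). On the log2(TPM + 1) scale it was 3.87.

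Slc27a2 encodes the related transporter that also activates very long-chain fatty acids (chr2:126552407-126588243, plus strand). It was near the limit of detection, with 26, 23 and 0 counts in TN2 neutrophils and 20 and 0 counts in TN1 neutrophils, and 0 counts in all 5 monocyte libraries. Its 3 libraries with reads stood at 1.75 and 1.93 TPM in TN2 and 1.51 TPM in TN1. Over all libraries of a cell type, 69 counts against a floor of 3 counts put it 36.7-fold higher in neutrophils (1.88 CPM, against 0.0512 CPM at the floor). The floor allows for counting error in monocytes only, not for that of the 69 counts or for the spread between libraries. The cell types overlapped at 0 counts. The other genes of the family were low in neutrophils too. Slc27a1, a transporter of muscle and fat, averaged 0.556 ± 0.455 TPM in neutrophils and 10.3 ± 8.13 TPM in monocytes (SD, n = 5 each). In monocytes that was above the mean of Slc27a4, 4.24 TPM. The log2 difference of Slc27a1 was -3.27 (SE 1.06, edgeR adjusted p = 0.0439). Its call was lost when 7 of the 10 libraries were left out in turn (adjusted p up to 0.253). Slc27a3 averaged 0.206 TPM in neutrophils and 0.513 TPM in monocytes, and Slc27a5 and Slc27a6 were at 0 in every neutrophil library.

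The synthetase Acsl1, which activates long-chain fatty acids (chr8:46471037-46536051, plus strand), was at 45.0, 30.5 and 24.3 TPM in TN2 neutrophils and 22.0 and 23.8 TPM in TN1 neutrophils. In monocytes it was at 12.7, 17.7 and 13.8 TPM in TN2 and 9.55 and 10.96 TPM in TN1. The cell types did not overlap, and the log2 difference in CPM was 1.78 (SE 0.23), or 1.09 on the log2(TPM + 1) scale. The 3 annotated transcripts from the upstream start held 92.6% ± 5.08 of Acsl1 TPM in neutrophils and 94.9% ± 6.37 in monocytes (SD, n = 5 each). The 2 transcripts from the downstream start, whose promoter window is the last printed above, were at 0 counts (rounded) in every library. Upstream-start transcripts held 86.0% to 100% of Acsl1 TPM over neutrophil libraries and 84.6% to 100% over monocyte libraries. Acsl1-202, a coding transcript that starts further into the gene than either RefSeq start, averaged 2.40 ± 2.33 TPM in neutrophils and 0.705 ± 0.994 TPM in monocytes.

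Acsl4, a synthetase that prefers arachidonic acid (chrX:142317993-142390535, minus strand), ran the other way. It was at 5.93, 3.34 and 1.82 TPM in TN2 neutrophils and 4.64 and 4.05 TPM in TN1 neutrophils, against 8.64, 16.1 and 17.8 TPM in TN2 monocytes and 20.1 and 47.2 TPM in TN1 monocytes. In TPM every neutrophil library was below every monocyte library, while in CPM neutrophil and monocyte libraries overlapped (log2 difference -1.68, SE 0.42, or -1.09 without monocyte TN1 tag_482). Of the other long-chain synthetases, Acsl5 averaged 26.5 ± 11.6 TPM in neutrophils and 58.9 ± 5.91 TPM in monocytes (SD, n = 5 each), and Acsl3 and Acsl6 averaged 1.36 TPM or less in either cell type.

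The final step of triglyceride synthesis is made by a pair of unrelated enzymes, Dgat1 (chr15:76502015-76511953, minus strand) and Dgat2 (chr7:99153658-99182719, minus strand). Dgat1 was at 1223, 560.04 and 504 TPM in TN2 neutrophils and 1649.9 and 902 TPM in TN1 neutrophils, against 88.5, 152 and 126 TPM in TN2 monocytes and 100.5 and 151 TPM in TN1 monocytes. Dgat2 was at 289.6, 412 and 440.3 TPM in TN2 neutrophils and 436 and 144 TPM in TN1 neutrophils, against 70.7, 69.8 and 109.6 TPM in TN2 monocytes and 57.1 and 23.96 TPM in TN1 monocytes. Neither gene overlapped between the cell types, and the log2 differences in CPM were alike, 3.35 (SE 0.31) for Dgat1 and 3.31 (SE 0.41) for Dgat2. The lowest Dgat2 library of each cell type was TN1 tag_482, the library with the highest mitochondrial share.

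Most of the Dgat1 signal lay on transcripts that are not annotated as protein coding. Its single protein-coding transcript held 13.4% ± 2.29 of Dgat1 TPM in neutrophils and 30.7% ± 12.1 in monocytes (SD, n = 5 each), and retained-intron transcripts held 74.5% ± 0.672 and 68.1% ± 11.8. By estimated counts, which favour the longer coding transcript, its share was 31.2% ± 4.35 in neutrophils and 53.5% ± 15.9 in monocytes. The coding transcript alone averaged 126 ± 60.1 TPM in neutrophils and 36.2 ± 13.5 TPM in monocytes. On the log2(TPM + 1) scale its difference was 1.72, against 2.85 for the whole gene. Transcripts of a gene share reads, so these shares rest on how the quantification divided them.

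**Figure D2:**
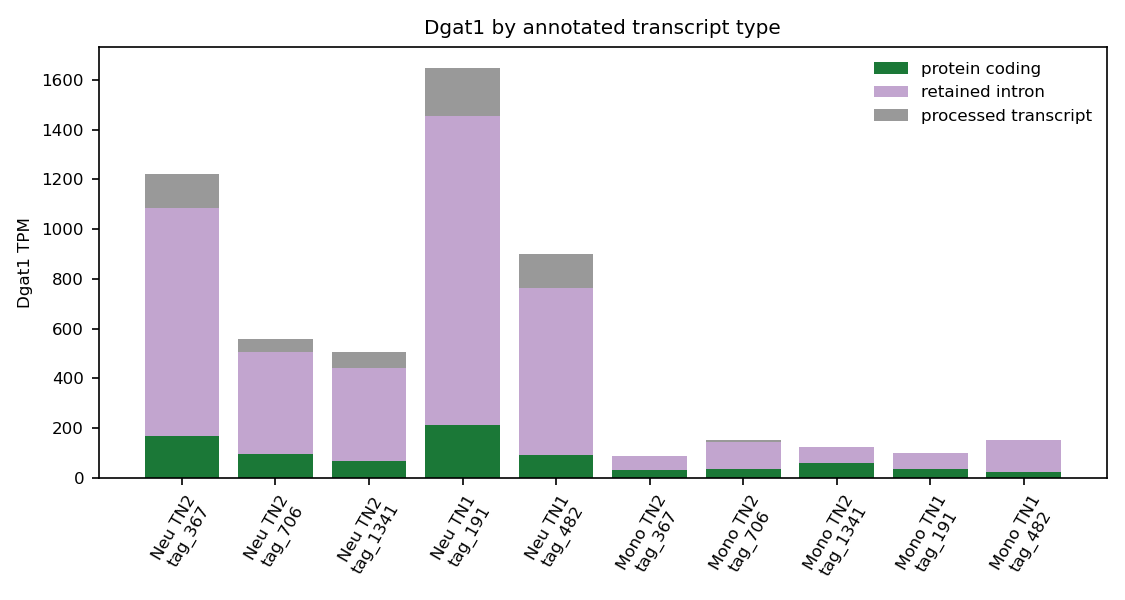
Dgat1 level in TPM (vertical axis, from 0) in each of the 10 libraries (horizontal axis, TN2 left of TN1, neutrophils left of monocytes), stacked by annotated transcript type. The protein-coding part averages 126 TPM in neutrophils and 36.2 TPM in monocytes, and retained-intron transcripts are the largest part in every library.

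Plin2 encodes the perilipin that coats droplets in most cells (chr4:86648386-86670060, minus strand). It was at 322, 521 and 259.9 TPM in TN2 neutrophils and 520.1 and 366.9 TPM in TN1 neutrophils, against 902, 1049 and 943 TPM in TN2 monocytes and 1099 and 595 TPM in TN1 monocytes. In TPM every neutrophil library was below every monocyte library, by 1.17 on the log2(TPM + 1) scale. In CPM the libraries overlapped and the log2 difference of -0.46 (SE 0.25) equalled the median of all genes to 2 decimals. The full-length transcript Plin2-201 held 69.2% ± 3.35 of Plin2 TPM in neutrophils and 76.6% ± 6.64 in monocytes (SD, n = 5 each).

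G0s2, an inhibitor of the lipase that Pnpla2 encodes (chr1:193272161-193273217, minus strand), was the most abundant of these RNAs in neutrophils. It was at 7796, 8699 and 10417 TPM in TN2 neutrophils and 5850.3 and 7634 TPM in TN1 neutrophils, against 15.8, 675 and 62.8 TPM in TN2 monocytes and 9.31 and 49.0 TPM in TN1 monocytes. No library overlapped, and the log2 difference in CPM was 7.29 (SE 1.15). It was 8.56 without monocyte TN2 tag_706 and 8.33 without monocyte TN1 tag_482. The gene lies whole, over 1057 bases, inside the Lamb3 gene on the other strand. Smart-seq2 reads do not mark the strand, so reads of the pair cannot be told apart there, and Lamb3 averaged 74.6 counts in neutrophils and 51.9 counts in monocytes.

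Pnpla2 itself, the first lipase of triglyceride breakdown (chr7:141455198-141460743, plus strand), was at 162, 148 and 157 TPM in TN2 neutrophils and 102 and 144 TPM in TN1 neutrophils. In monocytes it was at 92.4, 131 and 83.6 TPM in TN2 and 74.5 and 28.8 TPM in TN1. Every neutrophil library was higher in CPM (log2 difference 1.70, SE 0.27), while in TPM monocyte TN2 tag_706 reached into the neutrophil range (difference 0.996 on the log2(TPM + 1) scale). Transcripts annotated for nonsense-mediated decay held 58.8% ± 2.92 of Pnpla2 TPM in neutrophils and 62.1% ± 6.80 in monocytes (SD, n = 5 each). By that division the coding transcripts were the smaller part in both. As for Dgat1, the transcripts share reads, so the shares rest on how the quantification divided them. In neutrophils the level of the inhibitor G0s2 averaged 8079 ± 1666 TPM and that of the lipase 143 ± 23.7 TPM, and in monocytes 162 ± 288 TPM and 82.0 ± 36.6 TPM (SD, n = 5 each).

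Cpt1a, which makes acylcarnitine for import into mitochondria (chr19:3322334-3385733, plus strand), was at 17.5, 12.9 and 19.9 TPM in TN2 neutrophils and 10.4 and 10.5 TPM in TN1 neutrophils. In monocytes it was at 29.2, 35.6 and 37.0 TPM in TN2 and 23.9 and 15.02 TPM in TN1. The cell types overlapped in both units. The log2 difference was -0.18 (SE 0.24) in CPM and -0.90 on the log2(TPM + 1) scale.

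Monocyte libraries differed in their level of neutrophil marker genes, and the source of those reads was not tested. The 12 neutrophil markers summed to 0.514%, 5.16% and 1.96% of the neutrophil mean in TN2 monocytes and 0.294% and 0.526% in TN1 monocytes. G0s2 stood at 0.195%, 8.36% and 0.778% of its own neutrophil mean in TN2 monocytes and 0.115% and 0.607% in TN1 monocytes. It so ranked the 5 libraries in the same order as the marker sum. Slc27a4 was at 5.58%, 9.61% and 7.21% in TN2 monocytes and 4.27% and 3.95% in TN1 monocytes. Dgat1 was at 9.14% to 15.7%, Dgat2 at 6.95% to 31.8%, Pnpla2 at 20.2% to 91.6% and Acsl1 at 32.8% to 60.7% of their neutrophil means over the 5 monocyte libraries. These 5 genes had higher percentages than the marker sum in each library. G0s2 had lower ones than the sum in tag_367, tag_1341 and TN1 tag_191 and higher ones in tag_706 and TN1 tag_482. Most of the sum was S100a8 and S100a9, which averaged 86638 and 65670 TPM in neutrophils. Single markers differed: Mmp8 averaged 425 TPM in neutrophils and 81.8 TPM in monocytes, Il1r2 7540 and 463 TPM, and Mmp9 742 and 8.78 TPM. The sum is therefore no measure of each marker.

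**Figure D3:**
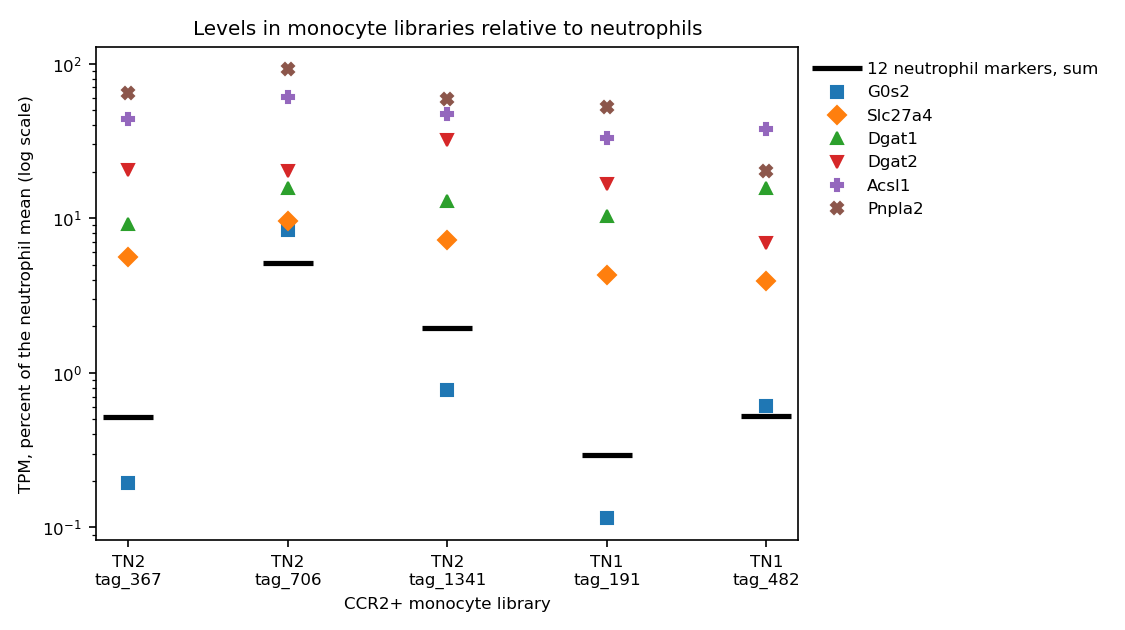
TPM in each CCR2+ monocyte library (horizontal axis) as a percent of the neutrophil mean (vertical axis, log scale) for the sum of 12 neutrophil markers (black bars) and for 6 genes (symbols). G0s2 runs from 0.115% to 8.36%, below the marker sum in 3 libraries and above it in 2, and the other 5 genes lie above it in all 5. The sum is mostly S100a8 and S100a9, and single markers differ from it.

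The genes with the most similar profile over the 10 libraries were ranked by Pearson's r of log2(CPM + 1), as a description. The libraries share a cell type in 2 sets of 5, and any gene with a large cell type difference scores high. For Slc27a4 they were Ets2, Grina and 4931428L18Rik (r = 0.996 each), and for Acsl1 they were Themis2 (0.983), Palm (0.982) and Ccrl2 (0.981). For G0s2 they were the neutrophil marker genes S100a9 (0.998), Retnlg (0.993) and Stfa2l1 (0.988). Plin2 was matched less closely, by Ankib1 (0.936), Aars (0.920) and Slc19a2 (0.911).

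Between the tumours, 0 of the 10 genes passed the test in neutrophils (edgeR, adjusted p from 0.943 to 1), where 0% of all genes were called, and 0 had an unadjusted p under 0.05, against 4.67% of all genes. DESeq2 also called 0 of the 10 after adjustment and gave Cpt1a an unadjusted p under 0.05, and limma on log2(TPM + 1) gave neither. Acsl1 and Cpt1a were higher in every TN2 than in every TN1 neutrophil library in CPM and Slc27a4 was lower in every one, while the other 7 overlapped. Among all tested genes 11.8% stood higher and 5.97% stood lower with no overlap, and their median log2 difference was 0.22. Cpt1a averaged 84.5 ± 25.3 CPM in TN2 neutrophils (SD, n = 3) and 49.3 ± 1.096 CPM in TN1 neutrophils (SD, n = 2), a log2 difference of 0.78 (SE 0.35, edgeR adjusted p = 0.943). Slc27a4 averaged 255.6 ± 35.9 CPM in TN2 and 333 ± 42.8 CPM in TN1 neutrophils (log2 difference -0.38, SE 0.28), but its TPM overlapped. Differences for the other genes were 0.32 (SE 0.31) for Acsl1, -0.67 (SE 0.38) for Dgat1, 0.52 (SE 0.53) for Dgat2, -0.17 (SE 0.35) for Plin2, 0.51 (SE 1.19) for G0s2 and 0.44 (SE 0.37) for Pnpla2. Acsl4 had -0.24 (SE 0.58) and Slc27a2, with its few reads, 0.73 (SE 2.28). Of the 10 differences, 5 were smaller than their SE. Monocyte markers summed to 404 to 890.5 TPM in TN2 neutrophils and 360.1 to 415 TPM in TN1 neutrophils, with 10 of 12 at a positive difference (median log2 1.49) and 4 at an unadjusted p under 0.05 (0 after adjustment). Dendritic cell markers summed to 76.9 to 169.5 TPM in TN2 neutrophils and 34.6 to 42.4 TPM in TN1 neutrophils, where H2-Ab1 alone averaged 112.8 and 35.9 TPM. The part of these markers in the values for Cpt1a and the other genes was not tested.

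In monocytes 0 of the 9 genes with reads passed the test either (edgeR, all adjusted p = 1), where again 0% of all genes were called. Acsl4 alone had an unadjusted p under 0.05 in edgeR and in DESeq2, as 2.83% of all genes did in edgeR, and limma on log2(TPM + 1) gave this to Dgat2 and Pnpla2. DESeq2 and limma each called 0 after adjustment. Slc27a4, Pnpla2 and Cpt1a were higher and Acsl4 was lower in every TN2 than in every TN1 monocyte library in CPM, against 12.4% and 7.77% of all genes, whose median log2 difference was 0.22. Acsl4 averaged 42.1 ± 14.0 CPM in TN2 monocytes (SD, n = 3) and 125 ± 95.7 CPM in TN1 monocytes (SD, n = 2), a log2 difference of -1.57 (SE 0.57, edgeR adjusted p = 1). Without TN1 tag_482 that value was -0.53 and without TN1 tag_191 it was -2.25. The dendritic cell markers summed to 3429 to 9691 TPM in TN2 monocytes and 10768 to 20936 TPM in TN1 monocytes. H2-Ab1 alone averaged 6046 and 15279 TPM there. These markers had 8 of 8 tested at a negative difference and 0 past the test, and their part in the result was not tested. Alveolar macrophage markers summed to 2038 to 11243 TPM in TN2 monocytes and 121 to 615 TPM in TN1 monocytes, where Chil3 alone averaged 6081 and 304 TPM. Of these markers 6 of 8 tested had a positive difference (median log2 2.38), 4 an unadjusted p under 0.05 and 0 passed the test. Fabp1, Krt79 and Cidec of that list were at 0 in TN1 monocytes. Endothelial markers summed to 10.7 to 2330 TPM in TN2 monocytes, highest in tag_706, and 51.0 to 141 TPM in TN1 monocytes, with 8 of 8 at a positive difference (median log2 2.69) and 0 past the test. Their part in the values for Slc27a4, Pnpla2 and Cpt1a was not tested.

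G0s2 averaged 91.2 ± 131 CPM in TN2 monocytes (SD, n = 3) and 15.5 ± 15.9 CPM in TN1 monocytes (SD, n = 2), a log2 difference of 2.56 (SE 1.31, edgeR adjusted p = 1). Library TN2 tag_706 set it: the value was 0.03 without that library and 4.14 without TN1 tag_482. Neutrophil markers summed to 922, 9262 and 3514 TPM in TN2 monocytes and 528 and 943 TPM in TN1 monocytes. Of the 12 markers 11 had a positive difference (median log2 3.03) and 0 passed the test. At an unadjusted p under 0.05 (edgeR) there were 8 of these markers, against 2.83% of all genes. Their part in the G0s2 value was not tested. Pnpla2 had a log2 difference of 0.73 (SE 0.37, edgeR adjusted p = 1), which was 0.19 without TN1 tag_482 and 1.31 without TN1 tag_191. The others were 0.50 (SE 0.30) for Slc27a4, 0.47 (SE 0.35) for Cpt1a, 0.74 (SE 0.53) for Dgat2, -0.29 (SE 0.39) for Dgat1, 0.08 (SE 0.31) for Acsl1 and -0.22 (SE 0.35) for Plin2. In the authors' deposited table the log2 difference of Cpt1a in monocytes was 0.80 (p = 0.0431, adjusted p = 1), the only one of these genes under 0.05 in either cell type.

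**Figure D4:**
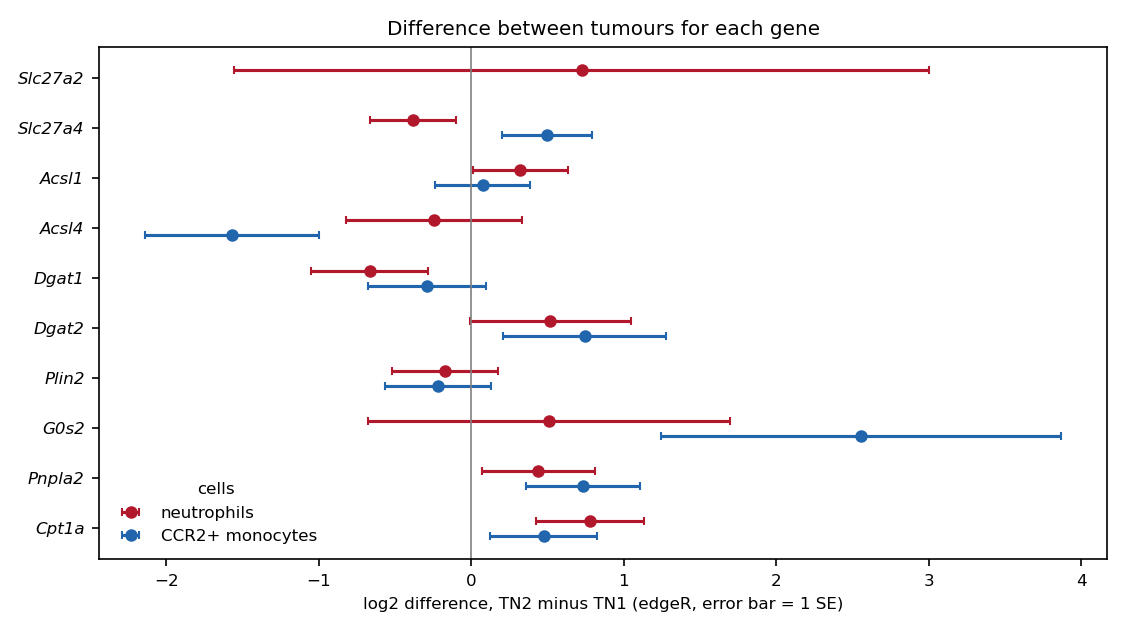
Log2 difference of each gene, TN2 minus TN1 (horizontal axis, edgeR on counts, bars 1 SE), in neutrophils (red) and CCR2+ monocytes (blue). Slc27a2 has no monocyte value because all 5 monocyte libraries are at 0, and 0 of the genes passed the test in either cell type.

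Whether the tumour difference itself differed between the cell types was tested as an interaction, and 0 of 9 genes passed (edgeR, all adjusted p = 0.9999), where 0% of all genes were called and 3.53% had an unadjusted p under 0.05, which 0 of these genes did. DESeq2 and limma on log2(TPM + 1) called 0 after adjustment, with Slc27a4 at an unadjusted p under 0.05 in DESeq2. The value for Slc27a4, which was lower in TN2 neutrophils and higher in TN2 monocytes, was -0.88 (SE 0.41, edgeR adjusted p = 0.9999). For Acsl4 it was 1.32 (SE 0.82) and for G0s2 -2.05 (SE 1.69).

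Beyond the 10 genes, 8 of 20 genes of mitochondrial oxidation and 5 of 14 of fatty acid synthesis were lower in neutrophils than in monocytes, and 4 of 13 genes of triglyceride and sterol ester synthesis were higher. Lists of 138 other lipid genes were set out by role, also with results of these data known. Calls and p-values for them are therefore a description of these libraries and lend no support. Of the 138 genes, 119 were tested. Of these 14 were higher and 24 lower in neutrophils than in monocytes and 81 did not pass (edgeR, adjusted p under 0.05), against 12.4% higher and 15.5% lower of all genes. Their median log2 difference was -0.65, also with genes at their bound, against -0.46 for all genes. Leaving out each of the 10 libraries in turn, 6 of the 14 higher calls held each time (Gpat3, Soat2, Agpat2, Olr1, Pnpla7 and Slc25a20), as did 13 of the 24 lower calls, and the other calls are described with the number of libraries that ended them. Of the 14 higher and 24 lower calls, 11 and 15 were kept without monocyte TN2 tag_367, and 13 and 17 without monocyte TN2 tag_706.

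**Figure D5:**
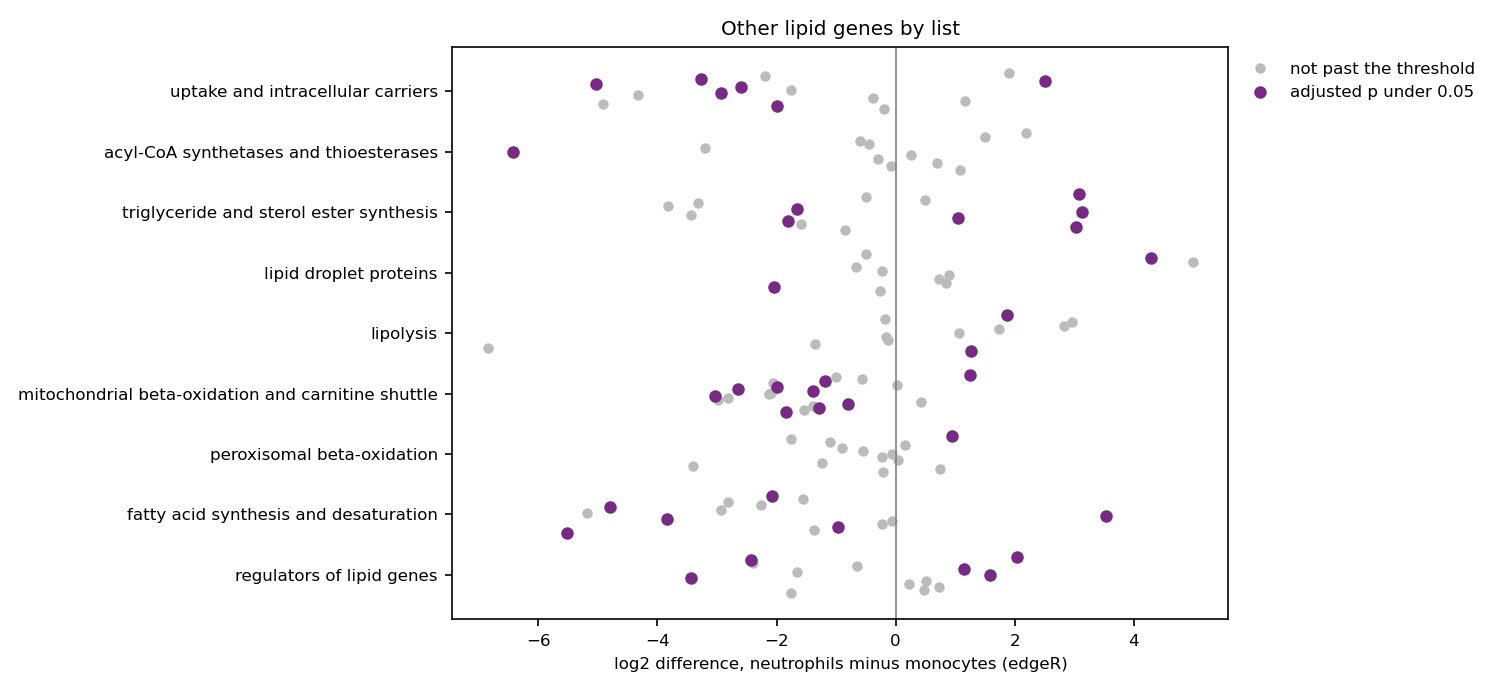
Log2 difference of the 119 tested lipid genes, neutrophils minus monocytes (horizontal axis, edgeR), in 9 lists (vertical axis); purple points passed the test (14 higher, 24 lower) and grey points did not. Abhd6, Acsbg1 and Fabp3, with at most 2 counts in neutrophils, are drawn at fitted values that are no bound, and the oxidation and synthesis lists hold 13 of the 24 lower genes.

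In triglyceride and sterol ester synthesis 4 of 13 genes were higher in neutrophils and 2 lower, against 12.4% and 15.5% of all genes. The same shares are the background for the count of each list below. A count near them is no result about that list. Gpat3, which starts glycerolipid synthesis, averaged 121 ± 32.5 TPM in neutrophils and 25.3 ± 10.5 TPM in monocytes (SD, n = 5 each; log2 difference in CPM 3.13, SE 0.37, adjusted p = 0.000342). Agpat2, of the next step, averaged 17.8 ± 3.53 and 6.20 ± 4.63 TPM (log2 difference 3.03, SE 0.85, adjusted p = 0.0246) in neutrophils and monocytes. Soat2, which esterifies cholesterol, averaged 24.6 ± 14.4 TPM in neutrophils and 4.55 ± 1.74 TPM in monocytes. Their relatives Gpat4 (5.07 ± 1.12 TPM in neutrophils and 28.9 ± 4.27 TPM in monocytes) and Agpat4 (21.2 ± 8.69 and 119.7 ± 29.5 TPM) were lower in neutrophils, at adjusted p of 0.00239 and 0.00221. The fourth higher gene, Agpat5, had a log2 difference of 1.05, did not pass in limma on log2(TPM + 1) and was lost in 4 of the 10 fits with a library left out.

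Among 10 droplet genes Plin5, a perilipin of oxidative tissues, was higher in neutrophils (3.57 ± 1.46 against 0.984 ± 1.77 TPM in monocytes, SD, n = 5 each, adjusted p = 0.0300) and Bscl2, encoding seipin, lower (9.23 ± 4.41 against 102 ± 34.5 TPM, adjusted p = 0.00171). The Plin5 call was lost in 5 of the 10 fits with a library left out (adjusted p up to 0.113). Hilpda, another inhibitor of the Pnpla2 lipase, averaged 436 ± 151 TPM in neutrophils and 410.0 ± 81.4 TPM in monocytes (SD, n = 5 each). Of 11 lipolysis genes the lysophospholipase Pnpla7 (59.9 ± 19.6 TPM in neutrophils and 28.5 ± 6.24 TPM in monocytes, adjusted p = 0.000577) and Abhd5, the activator of the Pnpla2 lipase (43.2 ± 15.5 and 25.4 ± 6.77 TPM, adjusted p = 0.0161), were higher and 0 lower. Abhd5 lost its call in 1 of these fits, without monocyte TN1 tag_482 (log2 difference 1.07). It did not pass in limma on log2(TPM + 1) either (log2 difference 0.74, adjusted p = 0.0678).

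Of 20 genes of mitochondrial beta-oxidation and the carnitine shuttle, 8 were lower in neutrophils and 1 higher (15.5% and 12.4% of all genes). The electron transfer flavoprotein genes Etfa (13.1 ± 5.04 TPM in neutrophils and 94.8 ± 22.6 TPM in monocytes) and Etfb (28.4 ± 6.34 and 193 ± 28.5 TPM) were lower by log2 differences of -2.64 (adjusted p = 0.000546) and -1.99 (adjusted p = 0.000777). Acaa2, the thiolase of the last step, and Hadha, of the trifunctional protein, were lower by log2 differences of -1.85 and -1.18. The carnitine carrier Slc25a20, which acts just after Cpt1a, was the 1 higher gene (104 ± 34.7 TPM in neutrophils and 74.1 ± 9.40 TPM in monocytes, log2 difference 1.24, adjusted p = 0.00666), and did not pass in limma on log2(TPM + 1). Etfa, Etfb, Acaa2 and Hadha kept their calls whichever library was left out, monocyte TN1 tag_482 with its mitochondrial share of 19.9% included. Eci2, Acadvl, Acadm and Decr1 lost theirs in 4, 7, 8 and 7 of the 10 fits.

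In fatty acid synthesis and desaturation 5 of 14 genes were lower in neutrophils and 1, Elovl7, higher (15.5% and 12.4% of all genes). Slc25a1, which exports citrate for synthesis, averaged 5.70 ± 1.57 TPM in neutrophils and 41.9 ± 24.001 TPM in monocytes (SD, n = 5 each; adjusted p = 0.00555). Acaca and Fasn, the core synthetic enzymes, averaged 0.0175 and 0.266 TPM in neutrophils and 4.01 and 6.24 TPM in monocytes, and lost their calls in 2 and 8 of the 10 fits with a library left out. Elovl7 lost its call in 2 of them (without neutrophil TN1 tag_191 or monocyte TN1 tag_482), Acly in 6 and Elovl6 in 7, while Slc25a1 kept its call in all. In the uptake list 5 of 14 genes were lower in neutrophils: besides Slc27a1 they included the endocytic receptor Lrp1 (9.70 ± 3.44 against 100.2 ± 27.4 TPM in monocytes), the scavenger receptor Msr1 (6.14 ± 9.34 against 215 ± 92.7 TPM), and the acyl-CoA binding Dbi (50.5 ± 17.5 against 362 ± 74.9 TPM). The receptor for oxidised lipoprotein, Olr1, was the 1 higher gene (45.2 ± 14.3 against 16.7 ± 10.1 TPM, adjusted p = 0.00359).

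Of 13 regulators Srebf2, of sterol synthesis (2.22 ± 0.5002 TPM in neutrophils and 19.7 ± 1.83 TPM in monocytes, adjusted p = 0.000334), and Nr1h3, encoding LXR alpha, were lower in neutrophils, and Tfeb, Rxra and Ppard were higher. These 3 higher calls were lost in limma on log2(TPM + 1). With a library left out, Ppard lost its call in all 10 fits, Rxra in 4, Tfeb in 2 and Nr1h3 in 2, each of the last 3 without monocyte TN1 tag_482 among others, and Srebf2 in 0. Of 13 peroxisomal genes only Pex5, the peroxisomal import receptor, was called (24.6 ± 5.41 TPM in neutrophils and 22.4 ± 6.91 TPM in monocytes, adjusted p = 0.0301), and not by limma on log2(TPM + 1) or in 5 of the 10 fits with a library left out. Of 11 acyl-CoA synthetases and thioesterases only Acsbg1 was called, with 0 counts in neutrophils and 88 in monocytes. With neutrophils set at a floor of 3 counts over the cell type it was 18.4-fold lower there. This bound leaves out the counting error of the 88. Acsbg1 passed the filter on low counts through monocyte libraries alone. Its edgeR call (adjusted p = 0.0389) rested on the 0 counts, not on the bound. That call was lost in 9 of the 10 fits with a library left out. Between tumours, 0 of the 119 genes passed in neutrophils or in monocytes, with 1 and 4 at an unadjusted p under 0.05 (edgeR). DESeq2 and limma on log2(TPM + 1) also called 0, with 5 and 1 at an unadjusted p under 0.05 in neutrophils and 6 and 10 in monocytes.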

How the data were processed

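Per the labels' protocols, RNA of the sorted cells went through RNeasy Micro purification, Smart-seq2 amplification and HiSeq 2500 sequencing. Per the series' design text, the authors used kallisto 0.42.3 with GRCm38 and AltAnalyze. Per the file headers, the deposited files give an estimated count and TPM for each transcript. The authors' deposited comparison tables give log2 group means, equal to the mean of log2(TPM + 1) (largest gap 2.3e-06), with p-values whose test is not given in the sources used here.

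Transcripts were summed to genes with GENCODE release 21: 81839 of 85276 (96.0%) matched, and the others held 1.94% to 3.59% of counts. Rounded counts entered edgeR 4.0.16 in R 4.3.3 (filterByExpr by group, minimum count 10 and minimum total 10, TMM, quasi-likelihood test, 4 groups in 1 model, 6 residual degrees of freedom), with Benjamini-Hochberg adjustment over 13384 genes and a threshold of 0.05. The biological coefficient of variation was 0.887. SE is the log2 difference over the root of F. DESeq2 1.42.0 and limma 3.58.1 were alternatives. The fit was tested on simulated data. Counts carry no molecular identifiers, so PCR copies remain. Replicates differed by more than counting noise (chi-square per degree of freedom 54.0 to 156.9).

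The genes and lists were chosen with earlier results of these data known. Of the other lipid genes, at most 4 per list and direction past the threshold were named, smallest p first, besides the Slc27a family; Acsl3, Acsl5, Acsl6, Hilpda, Eci2, Acadvl, Acadm, Decr1 and Fasn were named after their values were seen. One gene that this rule would name is not reported here.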

Additional observations from a re-analysis of the deposited data

Results flagged for a closer look

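One value stood apart from the other libraries of its cell type, both tumours together, by Dixon's test at the 95% level on TPM. The values were not put on a log scale for this, so the flag holds for linear TPM only. G0s2 was at 675 TPM in monocyte TN2 tag_706, against 15.8 and 62.8 TPM in the other TN2 monocyte libraries and 9.31 and 49.0 TPM in TN1 monocytes. The gap to the nearest library was 0.920 of the whole range of the 5 libraries, above the critical value of 0.710. In all 19 sets of 5 libraries were looked at and 1 stood out, and chance gives about 1 in 20. The same library had the highest sum of the 12 neutrophil markers among monocytes, 9262 TPM against 922 and 3514 TPM in the other TN2 monocytes and 528 and 943 TPM in TN1 monocytes. The part of those markers in the G0s2 value was not tested.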

How the results depend on the processing

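Members with a positive difference between the cell types numbered 7 under every setting run, Slc27a2 with 0 counts in every monocyte library among them. The list was chosen with this contrast known, so that count is a description and lends no support. Between tumours 0 members passed under any setting that left at least 2 libraries in each group. Genes called between tumours, 0 by the main test, were 2 without a filter, 106 with DESeq2, 1 and 3 with limma on log2(TPM + 1) and log2(TPM + 0.1) and 0 to 506 leaving out each library in neutrophils (506 without TN1 tag_191), and 15 with DESeq2 and 0 to 128 leaving out each library in monocytes (128 without TN1 tag_191). For the difference of these effects they were 1 without a filter, 39 with DESeq2 and 0 to 372 leaving out each library (372 without neutrophil TN1 tag_191, 71 without monocyte TN1 tag_191). Where a library is left out of TN1, the lone one is assumed to vary like the other groups. Between the cell types, 3733 genes (1663 higher in neutrophils, 2070 lower) became 5730 with limma on log2(TPM + 1) (1198 higher, 4532 lower), and 2682 to 3861 leaving out each library. Other lipid genes, 14 higher and 24 lower, became 7 and 53 with limma on log2(TPM + 1), 6 and 51 on log2(TPM + 0.1), and 7 to 15 and 15 to 23 leaving out each library, settings chosen for this count after seeing the data. The share of Dgat1 on its coding transcript in neutrophils, 13.4% of TPM, was 31.2% of estimated counts. The cause of these changes was not tested.

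Between tumours, Acsl1 in monocytes turned to -0.0236 with DESeq2's size factors and -0.0178 with its test, and Plin2 in monocytes to 0.25 with limma at either pseudocount. Leaving out each library, ranges that crossed 0 were -0.25 to 7.38 for Slc27a2, -0.60 to 0.0280 for Acsl4, -0.0512 to 1.52 for Dgat2 and -0.56 to 0.0569 for Plin2 in neutrophils, and -0.18 to 0.24 for Acsl1 and -0.52 to 0.00408 for Plin2 in monocytes.

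With the tag as a replicate block the cell types differed in 3335 genes (1542 higher in neutrophils, 1793 lower), and other lipid genes were 12 higher and 22 lower. The tags share a number only: same-tag deviations correlated at 0.0900 for tag_191 and tag_482, -0.0761 for tag_367, 0.377 for tag_706 and 0.352 for tag_1341. Slc27a2 rests on at most 26 counts in a library.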
